A study of Mus musculus with 12 samples.

Results

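The C1q and macrophage genes were C1qa, C1qb, C1qc, Csf1r, Cd68, Cd14, Mrc1 and Gpr34, 8 genes chosen by name, and every probe that the array's annotation gives one of these symbols was taken. Of the 8 genes 7 had a probe, 9 probes in all out of 45281 on the array, and Cd68 is not analysed here because no probe carried its symbol. For testing, a probe had to be detected (p under 0.05 against negative-control beads) on 3 or more of the 12 arrays. This held for 6 of the 9 probes and for 5 genes, C1qb, C1qc, Csf1r, Cd14 and Gpr34. The arrays came from thymocytes of C57BL/6 mice aged 2 months, sorted as lacking the co-receptors CD4 and CD8 (double-negative cells, the immature thymic precursors). There were 6 wild-type arrays. Another 3, the Lmo2 arrays, came from mice carrying a CD2-Lmo2 transgene, in which the CD2 promoter directs expression of the LIM-only protein Lmo2 to lymphoid cells. The last 3, the Lmo2 Lyl1-knockout arrays, came from mice with that transgene and a knockout of Lyl1, a basic helix-loop-helix factor that can bind with Lmo2. No arrays of a Lyl1 knockout without the transgene were used, so the knockout was read only in mice that carry the transgene. The labels describe no gate beyond CD4 and CD8 and do not say which arrays are different mice. The p-values therefore reflect only how far these samples vary, part of which may be technical.

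C1q is the recognition protein of the classical complement pathway. It is assembled from A, B and C chains, encoded by C1qa, C1qb and C1qc, binds immune complexes and dying cells, and is made mainly by tissue macrophages and some dendritic cells rather than by the liver. In the thymus, macrophages clear the many thymocytes that die during selection. Csf1r is the receptor for the growth factors CSF1 and IL-34 on which most macrophages depend. Cd14 is a membrane-anchored co-receptor that hands bacterial lipopolysaccharide to the TLR4 receptor, Cd68 is a glycoprotein of late endosomes, and Mrc1 is the mannose receptor. Gpr34 is a G-protein-coupled receptor for lysophosphatidylserine, a lipid released by damaged cells, and is best known from microglia and other macrophages.

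The C1q chains are neighbours on chromosome 4, in the order C1qb, C1qc, C1qa. The promoters of the C1q genes that passed the filter are shown because these genes followed the same order on the Lmo2 arrays. Each sequence is the 250 bases before the gene's annotated start in RefSeq (build GRCm38.p6), on the minus strand, chr4:136886201-136886450 for C1qb and chr4:136892915-136893164 for C1qc. Capitals mark the letters GAGGAA or their reverse complement TTCCTC, the core bound by the myeloid factor PU.1.
C1qb promoter: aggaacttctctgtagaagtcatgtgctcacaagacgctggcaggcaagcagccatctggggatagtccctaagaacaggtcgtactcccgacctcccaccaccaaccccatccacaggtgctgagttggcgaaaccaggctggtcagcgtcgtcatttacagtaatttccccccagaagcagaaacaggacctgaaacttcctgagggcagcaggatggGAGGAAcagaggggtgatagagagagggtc
C1qc promoter: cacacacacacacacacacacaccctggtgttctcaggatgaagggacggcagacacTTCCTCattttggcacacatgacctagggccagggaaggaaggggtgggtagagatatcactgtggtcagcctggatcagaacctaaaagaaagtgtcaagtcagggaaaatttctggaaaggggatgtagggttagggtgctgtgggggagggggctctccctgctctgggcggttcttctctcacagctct
Each promoter held 1 match, on the gene's own strand 30 to 25 bases before the start of C1qb and on the other strand 193 to 188 bases before the start of C1qc. The motif occurs on either strand in 23.3% of the 32851 promoter windows of this length in the table. The E-box letters CANNTG, the kind of site that Lyl1 binds together with E proteins, occurred at 3 places in the C1qb promoter and at 1 in the C1qc promoter, against 66.2% of all windows with at least 1. The GATA letters NGATAA, read on both strands, occurred in neither promoter and in 22.5% of all windows. No motif match overlapped another. These matches are descriptions of letters.

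Lyl1, the gene removed in the knockout, served as a check of the labels. Its log2 values were 6.66 to 7.25 in wild-type samples, 10.01, 10.19 and 11.64 with the transgene, and 4.80, 5.03 and 4.90 with the knockout. None of the knockout arrays detected it, and it was at least 43.0-fold lower there than with the transgene alone (adjusted p = 2.61e-06). Between 37.9% and 43.0% of probes were detected per array. Pearson correlations across all probes, which are not independent replicates, were 0.969 to 0.993 among wild-type arrays, 0.986 to 0.991 among knockout arrays and 0.953 to 0.976 among Lmo2 arrays. Lmo2 replicate 3 stood furthest apart, with 0.942 to 0.960 against the 11 others. Wild-type replicates 4 to 6 matched 3 raw columns that carry NHD13 in their names, a term absent from the labels, so calls that ended against 1 set of wild-type arrays alone are given with their values. Cd8a was not detected on any array, Cd4 was detected on 2 wild-type, 1 Lmo2 and 3 knockout arrays, and Cd8b1, the other chain of CD8, was detected on all of them. The 16 T-lineage markers had a summed normalized intensity of 91040 to 100491 on wild-type, 84757 to 100108 on Lmo2 and 92991 to 99318 on knockout arrays, but 2 of them, Ptcra (-2.78 ± 0.36) and Rag1 (-1.57 ± 0.16), were lower on Lmo2 than on wild-type arrays, as was Cd8b1 (-2.26 ± 0.25; adjusted p = 0.000105).

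**Figure D1:**
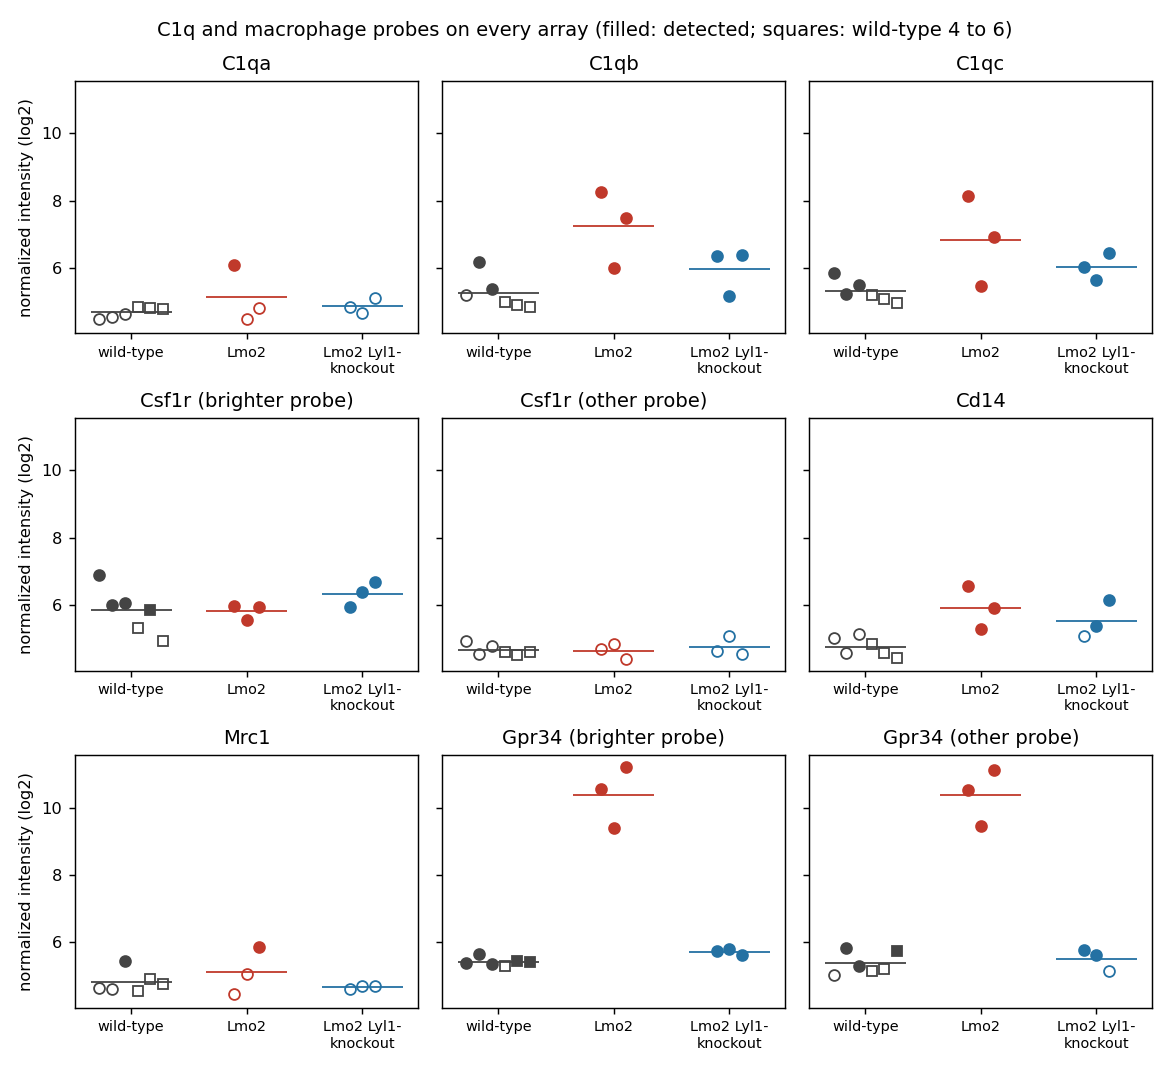
Normalized intensity (log2) of the 9 probes of the C1q and macrophage genes on every array, by genotype; bars are group means, filled points are detected at p under 0.05, and squares are wild-type replicates 4 to 6. Both Gpr34 probes lay between 9.39 and 11.21 on the Lmo2 arrays and at 5.84 or below on all others, while C1qb and C1qc were spread widely among the Lmo2 arrays.

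The first comparison, Lmo2 against wild-type arrays, asked how these genes stood with the transgene. Gpr34 rose most, with a log2 difference of 4.96 ± 0.29 (SE; n = 3 and 6 arrays; adjusted p = 1.72e-06), or a measured 31.1-fold. Its wild-type values lay near the detection limit, so the size of the fold is uncertain. C1qb, detected on 2 of the 6 wild-type arrays, rose by a measured 2.00 ± 0.46, and Cd14 was at least 1.57-fold higher. C1qc missed the threshold (1.54 ± 0.44; adjusted p = 0.0508) and Csf1r gave -0.01 ± 0.35 (0.988). Of the 5 genes tested 3 were thus higher and 0 lower, where 8.84% of all 20651 kept probes passed in either direction, 4.65% as higher and 4.18% as lower. Of the 5, 4 differences were above 0 and 4 had an unadjusted p under 0.05, a mark that 22.3% of kept probes reached. Cd14 was detected on 0 wild-type, 3 Lmo2 and 2 knockout arrays, so it passed the detection filter only through groups where it was higher, and the count supports nothing by itself. The median difference of the 5 genes was 1.54, against -0.02 over the brightest probes of all 10526 genes tested. All adjusted p-values are from limma's moderated test, two-sided, with Benjamini-Hochberg adjustment over all kept probes. In RNA from bulk cells, more cells of a type and more RNA per cell cannot be told apart.

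C1qb, the B chain, read 5.20, 6.19, 5.37, 4.98, 4.89 and 4.86 on wild-type replicates 1 to 6. It read 8.25, 6.00 and 7.50 on Lmo2 replicates 1 to 3, and 6.35, 5.17 and 6.40 on the knockout replicates. It was detected on 2 of 6 wild-type arrays and on all 3 arrays of each other group. Replicates 1 and 3 of the Lmo2 group lay above every other array, but replicate 2 lay below wild-type replicate 2, so the groups overlap. The difference between Lmo2 and wild-type arrays had a 95% interval from 1.00 to 3.00 (adjusted p = 0.0171). The call ended against wild-type replicates 1 to 3 alone (1.66; adjusted p = 0.169) but not against replicates 4 to 6 alone (2.34; 0.0194). It also ended without Lmo2 replicate 1 (1.50; 0.0770) and without Lmo2 replicate 3 (1.88; 0.0647), and the difference was 0.81 (0.0178) in intensities with no background correction.

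C1qc, the C chain, read 5.87, 5.22, 5.49, 5.20, 5.09 and 4.96 on wild-type replicates 1 to 6. On Lmo2 replicates 1 to 3 it read 8.15, 5.46 and 6.91, and on the knockout replicates 6.03, 5.65 and 6.43. Detection held on 3 of 6 wild-type arrays and on all arrays of both other groups. The order of the Lmo2 arrays was that of C1qb, with replicate 1 highest and replicate 2 inside the wild-type range. The difference from wild-type of 1.54 had an interval from 0.57 to 2.50. It passed the threshold without Lmo2 replicate 2 (2.23; adjusted p = 0.0017) and in 6 other alternatives, among them array weights (1.75; 0.0377) and arrays scaled to a common median (1.41; 0.0368), and was 1.31 (0.297) against wild-type replicates 1 to 3 alone. Without Lmo2 replicate 1 it was 0.88 (0.178). Without background correction it was 0.62 (0.0588).

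C1qa, the A chain, was above background on 1 of the 12 arrays only, Lmo2 replicate 1, where it read 6.08 with a detection p-value of 0.00214. The other Lmo2 replicates read 4.50 and 4.81, the wild-type arrays 4.49 to 4.84 and the knockout arrays 4.67 to 5.11. The 1 array that detected C1qa was thus the array with the highest C1qb and C1qc. Tested with the filter left off, C1qa differed by 0.45 between Lmo2 and wild-type arrays (adjusted p = 0.536).

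Among wild-type arrays, C1qb, C1qc and Csf1r also separated by set. C1qb read 5.20 to 6.19 on replicates 1 to 3 and 4.86 to 4.98 on replicates 4 to 6, and C1qc 5.22 to 5.87 and 4.96 to 5.20. Csf1r read 6.00 to 6.90 on replicates 1 to 3 and 4.93 to 5.87 on replicates 4 to 6. C1qa, not detected on any wild-type array, ran the other way, 4.49 to 4.64 and 4.77 to 4.84. These sets did not overlap on 38.9% of all kept probes. The summed intensity of 11 dendritic-cell markers was 24575 to 27727 on replicates 1 to 3 and 10259 to 13617 on replicates 4 to 6. Its brightest genes weigh most in this sum, such as Cd74 (12.90 to 13.11 and 11.07 to 11.83) and H2-Ab1 (12.11 to 12.50 and 10.57 to 11.29). Not all of the 11 separated. Siglech read 7.62 to 8.46 and 7.57 to 8.02, Batf3 4.71 to 5.42 and 4.98 to 5.32, and Bst2 8.41 to 9.32 and 8.91 to 10.08. The summed intensity of 6 B-cell markers separated in the same direction as the dendritic-cell sum, 2721 to 3967 and 1149 to 1565. That of 16 neutrophil markers ran the other way, 1013 to 2530 and 4417 to 15917. Their part in the results was not tested.

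Csf1r, the CSF1 receptor, had 2 probes. The brighter (ILMN_2710819) read 6.90, 6.00, 6.05, 5.32, 5.87 and 4.93 on wild-type replicates 1 to 6, with 4 of 6 detected. It read 5.97, 5.56 and 5.96 on Lmo2 replicates and 5.95, 6.39 and 6.68 on knockout replicates, all detected. All Lmo2 values lay inside the wild-type range, and the interval of the difference was -0.78 to 0.75. Its sign followed the wild-type set used, -0.49 (adjusted p = 0.486) against replicates 1 to 3 alone and 0.46 (0.273) against replicates 4 to 6 alone. The other probe (ILMN_1230485) was not detected on any array, with values of 4.40 to 5.08.

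Cd14, the lipopolysaccharide co-receptor, read 5.02, 4.59, 5.15, 4.84, 4.57 and 4.44 on wild-type replicates 1 to 6 and was not above background on any of them. It was detected on all 3 Lmo2 arrays, at 6.58, 5.28 and 5.93. On the knockout replicates it read 5.10, 5.38 and 6.15, with 2 of 3 detected. Each Lmo2 array lay above each wild-type array, and 12.3% of all kept probes separated these groups in one direction or the other. The measured difference was 1.16 ± 0.29 (interval 0.52 to 1.80; adjusted p = 0.0283). The call ended without Lmo2 replicate 1 (0.84; 0.118) or 3 (1.16; 0.0738) and without wild-type replicate 4 (0.0503), 5 (0.0579) or 6 (0.0594). It also ended against wild-type replicates 1 to 3 alone (1.01; 0.199) and with arrays scaled to a common median (1.03; 0.0570), and held against replicates 4 to 6 alone (1.31; 0.0361).

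Mrc1, the mannose receptor, was detected on wild-type replicate 3, at 5.43, and on Lmo2 replicate 3, at 5.86. It read 4.47 and 5.06 on the other Lmo2 arrays, 4.55 to 4.90 on the other wild-type arrays and 4.60 to 4.70 on the knockout arrays. Without the filter Lmo2 minus wild-type gave 0.31, not past the threshold.

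Gpr34, the lysophosphatidylserine receptor, was read by 2 probes that gave nearly the same values. The brighter (ILMN_2742840) read 5.37, 5.66, 5.37, 5.28, 5.45 and 5.43 on wild-type replicates 1 to 6, 10.56, 9.39 and 11.21 on Lmo2 replicates 1 to 3, and 5.73, 5.79 and 5.63 on the knockout replicates. The other (ILMN_1237817) read 5.03 to 5.84 on wild-type arrays, 10.52, 9.46 and 11.11 on Lmo2 arrays and 5.13 to 5.77 on knockout arrays. The Lmo2 arrays stood far above every other array on both probes, while wild-type and knockout arrays lay within 1 unit of each other. The brighter probe was detected on 5 of 6 wild-type arrays and the other on 3 of 6. Their wild-type values lay near the lowest detected values of these arrays, 5.10 to 5.38. The other probe differed by 4.99 ± 0.32 (adjusted p = 1.85e-06), a measured 31.8-fold. Both calls held in all alternatives, 24 for the brighter probe and 23 for the other, with differences from 2.95, without background correction, to 5.46.

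Single Lmo2 arrays were set against the wild-type range, as a description with no test. Of the 6 kept probes 5 lay above the range on replicate 1, 3 on replicate 2 and 5 on replicate 3, and 0 lay below it. Of all kept probes 20.4%, 21.7% and 27.3% lay above the range on these arrays. Replicate 1 was highest for C1qb, C1qc and Cd14, by 3.00, 2.84 and 1.81 over the wild-type mean. Replicate 3 followed with 2.25, 1.61 and 1.16. Replicate 2 was lowest with 0.75, 0.16 and 0.51, and only Cd14 and Gpr34 were above the wild-type range on it. Gpr34 had another order, with replicate 3 highest (5.78), then replicate 1 (5.13) and replicate 2 (3.96). Lyl1 was highest on replicate 3 as well, by 4.58, with 2.95 on replicate 1 and 3.13 on replicate 2.

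**Figure D2:**
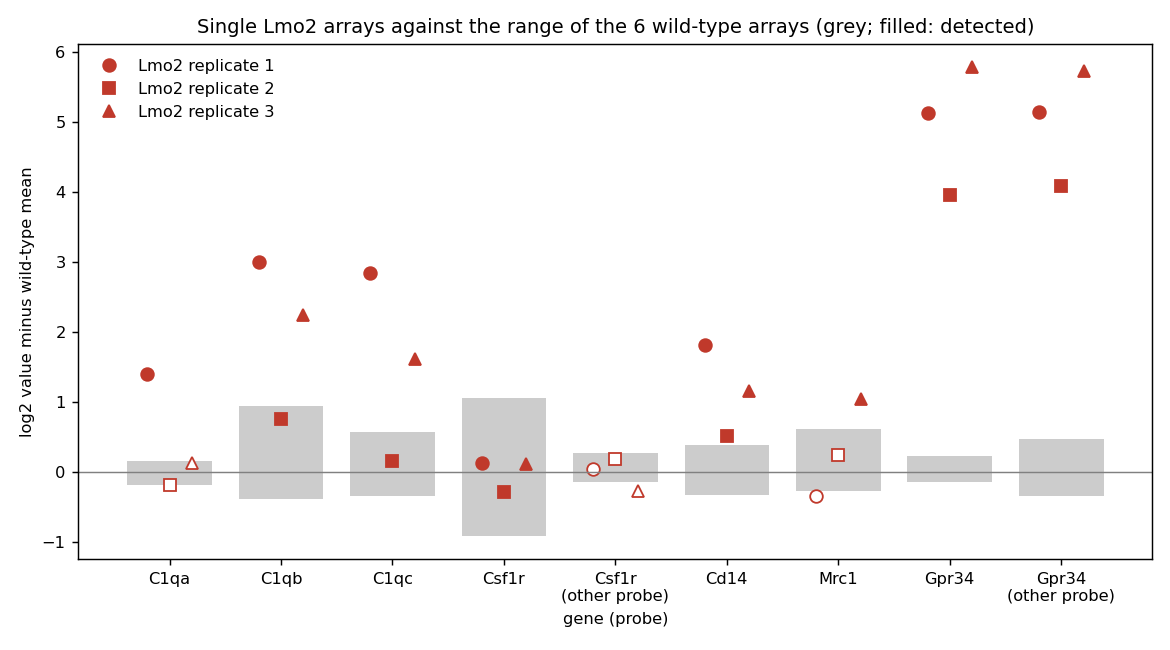
Difference of each Lmo2 array from the wild-type mean (log2) for the 9 probes, with the range of the 6 wild-type arrays in grey and filled symbols for detected values. C1qb and C1qc lay above the range on replicates 1 and 3 and inside it on replicate 2, whereas Gpr34 lay at least 3.96 above the mean on all 3.

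The second comparison, Lmo2 Lyl1-knockout against Lmo2 arrays, asked how the same genes stood in transgenic cells that lack Lyl1. Gpr34 fell by 4.67 ± 0.34 in log2 (SE; n = 3 arrays each; adjusted p = 5.03e-06), with -4.85 ± 0.37 (6.99e-06) on its other probe. It was the 1 gene of 5 that passed, where 7.03% of all kept probes passed in either direction, 3.25% as higher and 3.78% as lower. An unadjusted p under 0.05 held for 2 of the 5 and for 18.8% of kept probes. C1qb gave -1.27 ± 0.53 (interval -2.43 to -0.12; adjusted p = 0.213) and C1qc -0.80 ± 0.51 (-1.92 to 0.31; 0.453), with knockout arrays inside the spread of the Lmo2 arrays for C1qc. Cd14 gave -0.39 ± 0.34 (0.623) and Csf1r 0.51 ± 0.40 (0.568). The median of the 5 genes was -0.80, against 0.01 over all genes. Without Lmo2 replicate 2 both C1q genes passed the threshold, C1qb at -1.90 (0.0267) and C1qc at -1.49 (0.0323), while without Lmo2 replicate 1 they gave -0.77 (0.452) and -0.15 (0.880). A p that misses the threshold does not show that the groups were alike.

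The last comparison set Lmo2 Lyl1-knockout against wild-type arrays. None of the 5 genes passed limma's test, where 0.707% of all kept probes passed, and 1 had an unadjusted p under 0.05, Cd14, a mark that 11.1% of kept probes reached. All 5 differences were above 0, with a median of 0.73 against -0.01 over all genes. C1qb gave 0.73 ± 0.46 (interval -0.28 to 1.73), C1qc 0.73 ± 0.44 (-0.23 to 1.69), Csf1r 0.50 ± 0.35 (-0.26 to 1.26) and Cd14 a measured 0.77 ± 0.29 (0.14 to 1.41; adjusted p = 0.362). Cd14 was not above background on any wild-type array, which bounds it at least 1.20-fold higher on knockout arrays. With array weights Cd14 passed (0.83; 0.0292). Gpr34 gave 0.29 ± 0.29 (-0.34 to 0.93; 0.684) and 0.14 ± 0.32 (0.873) on its probes.

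**Figure D3:**
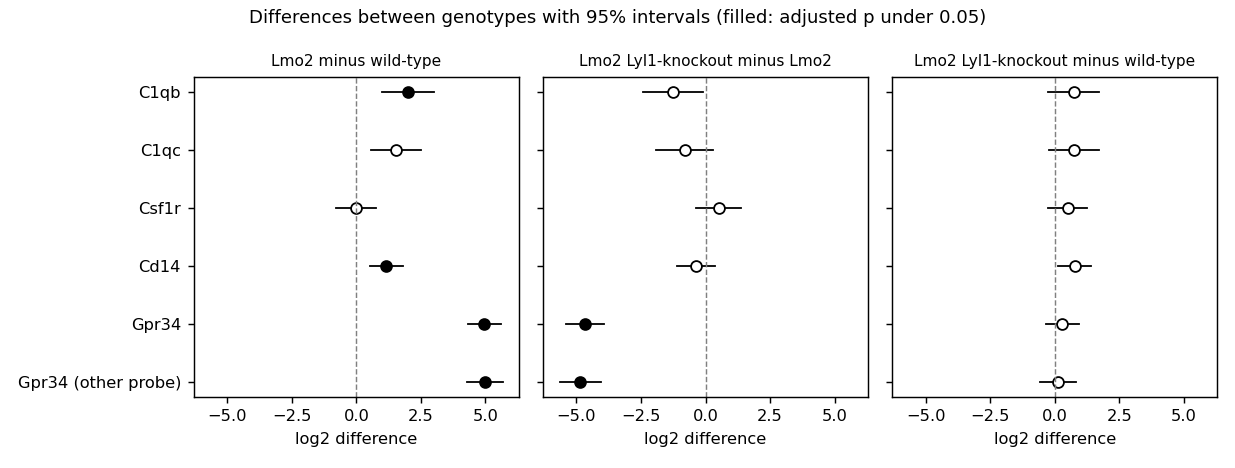
Log2 differences between genotypes for the 6 kept probes, with 95% intervals from limma's fit and filled points for an adjusted p under 0.05. Both Gpr34 probes passed in the first and the second comparison, C1qb and Cd14 in the first only, and none in the last.

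In the order of the group means, C1qb, C1qc and Cd14 were highest on Lmo2 arrays, then knockout, then wild-type arrays. For C1qb and Cd14 the 2 ends of the order differed past the threshold and neither pair of neighbours did, and for C1qc no pair passed. Gpr34 was highest on Lmo2 arrays, apart from both other groups, whose order was not separated. Csf1r was highest on knockout arrays with no pair past the threshold. The comparisons share arrays, since the Lmo2 arrays enter the first 2 and the wild-type arrays the first and last.

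In a short list of macrophage markers, few genes other than those above were kept, and a longer list of tissue macrophage genes follows below. Of the 9 macrophage markers with a probe, 5 were kept, Adgre1 and 4 of the genes above. Their summed normalized intensity was 171 to 284 on wild-type, 924, 303 and 502 on Lmo2 replicates 1 to 3, and 282 to 499 on knockout arrays. Since 4 of the 5 are the genes above, this sum is no independent check of macrophages. The defining receptors Fcgr1 and Mertk were not detected on any array. Adgre1, an adhesion receptor that marks mature macrophages, read 5.21 to 6.20 on wild-type arrays, 7.47, 6.76 and 6.28 on Lmo2 arrays and 5.27, 7.26 and 7.27 on knockout arrays, which gave 1.17 ± 0.42 for Lmo2 minus wild-type (adjusted p = 0.118). The Lmo2 array order of Adgre1 was not that of the C1q genes, since replicate 3 was lowest. The summed intensity of 5 kept monocyte markers was 283 to 370 on wild-type, 501 to 812 on Lmo2 and 324 to 504 on knockout arrays. Single genes weighed on the Lmo2 sums. Fn1 read 8.56 on replicate 1 and 5.54 and 5.43 on the others, and F13a1 read 9.29 on replicate 2. Of the 5 differences from wild-type arrays 4 were above 0, with Ms4a6d at 0.11. Ccr2 gave -0.34 and was detected on 0 Lmo2 arrays, and Vcan and Ms4a6c were not detected on any array. Of the 5 kept, 1 was called higher on Lmo2 than on wild-type arrays, F13a1 (1.37 ± 0.35; adjusted p = 0.0296), and 0 lower. Among all genes 5.59% were higher and 4.97% lower by their brightest probe. The call of F13a1 ended without Lmo2 replicate 2 (0.84) or 3 (1.38) and against either wild-type set alone (1.39 and 1.36). The part of monocytes in the results was not tested.

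Of 46 tissue macrophage genes with a probe, Adgre1, Fcgr1 and Mertk among them, 25 were kept. Between Lmo2 and wild-type arrays 3 rose and 3 fell, with a median of -0.17, where 5.59% of all genes rose and 4.97% fell by their brightest probe. Slc40a1, the iron exporter ferroportin, rose by 3.89 ± 0.45 (adjusted p = 0.000152), Creg1, a lysosomal glycoprotein, by 1.71 ± 0.29 and Axl, a receptor for dying cells, by 1.37 ± 0.17. Fcer1g, the signalling chain of Fc receptors, fell (-2.13 ± 0.26; 0.000196), as did Cx3cr1, the fractalkine receptor (-1.64 ± 0.33), and Sirpa, the receptor of the signal CD47 (-1.25 ± 0.31). The call of Cx3cr1 ended against wild-type replicates 1 to 3 alone (-1.48; 0.100). That of Sirpa ended there (-1.10; 0.196), without Lmo2 replicate 2 (-1.09) or 3 (-1.18) and without wild-type replicate 4, 5 or 6 (-1.24 to -1.20). Of 8 NK-cell markers 6 were lower as well, with a summed intensity of 13083 to 18504 on wild-type, 3620 to 6931 on Lmo2 and 7598 to 9598 on knockout arrays, and their part in the falls of Fcer1g and Cx3cr1 was not tested. The filter left out 21 genes, 15 of which were detected on no array, among them Cd5l, Siglec1, Spic and Hmox1.

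In the same 25 genes the knockout arrays gave 3 higher and 2 lower than Lmo2 arrays, with a median of 0.52, where 4% of all genes were higher and 4.77% lower. Fcer1g rose by 2.57 ± 0.30, Sirpa by 1.84 ± 0.36, and Fcgr4, an activating IgG receptor, was at least 4.03-fold higher. Creg1 (-1.63 ± 0.34) and Axl (-1.13 ± 0.20) fell. Both lost their calls with arrays scaled to a common median (-1.42; adjusted p = 0.0894 and -1.01; 0.148). With only these groups in the fit Axl (0.0539) and Sirpa (0.0905) lost theirs. Against wild-type arrays Slc40a1 (2.65 ± 0.45; adjusted p = 0.0171) and Fcgr4 (2.36 ± 0.32; 0.00483) were higher on knockout arrays, where 0.542% of all genes were. The call of Slc40a1 ended without knockout replicate 2 (2.23) or 3 (2.38) and against wild-type replicates 1 to 3 alone (3.09; 0.0563). Slc40a1 read 6.71, 8.91 and 8.60 on the knockout arrays, all above the wild-type values of 4.79 to 6.04, and replicate 2 lay inside the Lmo2 range of 8.72 to 9.68. Neutrophil markers moved with the knockout group. Their summed intensity was 31618, 77933 and 83017 on knockout replicates 1 to 3, 549 to 2150 on Lmo2 and 1013 to 15917 on wild-type arrays, and 15 of 16 were higher on knockout than on Lmo2 arrays. The part of such cells in the knockout values of Fcgr4, Fcer1g, Adgre1 or Cd14 was not tested.

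**Figure D4:**
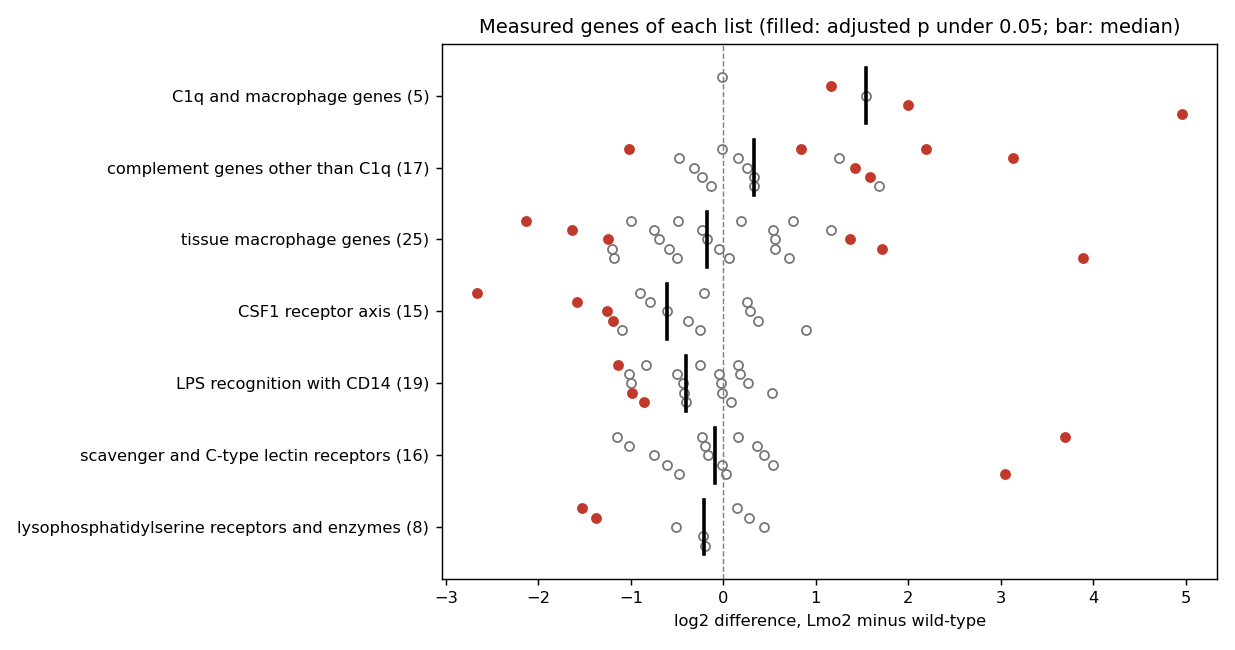
Log2 values of Lmo2 minus wild-type arrays for each kept gene of 7 lists, with filled points for an adjusted p under 0.05 and black bars for list medians. The C1q and macrophage genes had a median of 1.54, and the other lists had medians between -0.61 and 0.33.

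Among complement genes other than C1q, 17 of 40 with a probe were kept. Between Lmo2 and wild-type arrays 5 rose and 1 fell, with a median of 0.33, where 5.59% of all genes rose and 4.97% fell. Cd93, a lectin-like receptor once described as a C1q receptor, rose by 3.13 ± 0.25 (adjusted p = 6.98e-06), Cd59a, which blocks the membrane attack complex, by 2.19 ± 0.35 (0.00155) and C2, the protease of the classical pathway, by 1.58 ± 0.32 (0.00779). Fcna, a ficolin of the lectin pathway made by macrophages, rose by 1.42 ± 0.37 (0.0318), and C8b, a chain of the membrane attack complex, by 0.83 ± 0.21 (0.0261). C1qbp, a mitochondrial protein that can bind the globular heads of C1q, fell by 1.02 ± 0.27 (0.0375). Against wild-type replicates 1 to 3 alone C2 (1.35; 0.0897), Fcna (1.20; 0.234), C8b (0.63; 0.192) and C1qbp (-0.93; 0.219) lost their calls, and C1qbp also against replicates 4 to 6 alone (-1.12; 0.0595). Fcna also lost its call without Lmo2 replicate 1 (0.83) or 3 (1.51) or without wild-type replicate 1, 4, 5 or 6 (1.36 to 1.43). It was detected on 1 wild-type, 3 Lmo2 and 1 knockout arrays, and its call was lost with no detection filter (adjusted p = 0.0589), with no background correction (0.51; 0.0503) and with only these groups in the fit (0.0665). C8b lost its call without any 1 Lmo2 array (0.76 to 0.88) and without wild-type replicate 4 or 5 (0.76 and 0.79). C1qbp lost its call without Lmo2 replicate 2 (-0.87) or 3 (-0.72), without any 1 knockout array (-1.02) and without any 1 wild-type array except replicate 3 (-1.04 to -0.96).

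The order of the Lmo2 arrays in Fcna was that of C1qb and C1qc. It read 4.62 to 5.39 on wild-type arrays, 7.54, 5.34 and 6.18 on Lmo2 replicates 1 to 3, and 4.72 to 5.25 on knockout arrays, so its knockout values lay inside the wild-type range. C4a and C4b, which C1q's partner proteases cleave, gave 1.68 ± 0.51 (adjusted p = 0.0619) and 1.25 ± 0.45 (0.114). Their sequences are near-identical, so their values are uncertain. C1rb and C1s1 among those proteases, the anaphylatoxin receptors C3ar1 and C5ar1, and the integrin chains Itgam and Itgax were not detected on any array. Between knockout and Lmo2 arrays Cd93 (-4.27 ± 0.29), Cd59a (-2.37 ± 0.40) and C2 (-2.01 ± 0.37) fell. Fcnb, a ficolin of neutrophils and their precursors, rose by 1.89 ± 0.50 (adjusted p = 0.0403), lost without any 1 of knockout replicates 2 (1.45) and 3 (1.59), Lmo2 replicates 1 (1.83) and 3 (1.77), and wild-type replicates 1, 4, 5 and 6. Its adjusted p was 0.0998 with wild-type replicates 4 to 6 left out of the fit and 0.0727 with replicates 1 to 3 left out. None of the 17 passed limma's test between knockout and wild-type arrays.

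Around Csf1r, 15 of 21 genes of its ligands, its signalling and the receptors of other colony-stimulating factors were kept. Between Lmo2 and wild-type arrays 0 rose and 4 fell, with a median of -0.61, against the same 5.59% and 4.97% of all genes. Csf2ra, a chain of the receptor for GM-CSF, fell by 2.66 ± 0.35 (adjusted p = 0.000384) and Irf8, a factor of monocytes and dendritic cells, by 1.58 ± 0.30 (0.00592). Myo1f, a myosin of immune cells, fell by 1.26 ± 0.27 and Plcg2, a phospholipase, by 1.20 ± 0.28. Without Lmo2 replicate 2 Myo1f (-0.92; 0.0524) and Plcg2 (-0.81; 0.0675) lost their calls, as both did against wild-type replicates 1 to 3 alone (-0.94 and -1.39), and Plcg2 also against replicates 4 to 6 alone (adjusted p = 0.0648). On knockout arrays Csf2ra was higher than on Lmo2 arrays by 2.46 ± 0.40, Csf3r, the receptor of the neutrophil growth factor G-CSF, at least 4.96-fold and Myo1f by 1.33 ± 0.32. Csf2rb, the shared chain of the GM-CSF receptor, passed with a measured 0.68 ± 0.17 but was not above background on any Lmo2 array. Calls ended without knockout replicate 2 or 3 for Myo1f (1.23 and 1.28) and without any 1 knockout array for Csf2rb (0.68 to 0.69), and for both without Lmo2 replicate 2 (0.99 and 0.62), with Csf2rb lost without Lmo2 replicate 3 (0.68) and without wild-type replicates 4 to 6 (adjusted p = 0.0562) too. Csf3r is itself one of the 16 neutrophil markers, of which 15 were higher on knockout arrays, and the part of such cells in these values was not tested. The median of the 15 was 0.68, and 4% of all genes were higher and 4.77% lower. Csf1, the ligand, was not detected on any array. Spi1, which encodes PU.1, was detected on 3 wild-type, 0 Lmo2 and 2 knockout arrays.

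Around Cd14, 19 of 22 genes of lipopolysaccharide recognition were kept, and between Lmo2 and wild-type arrays 0 rose and 3 fell, with a median of -0.41, beside 5.59% higher and 4.97% lower among all genes. Irak3, a brake on Toll-like receptor signalling, gave -1.14 ± 0.26, Tirap, an adaptor of TLR4, -0.99 ± 0.22, and Irak2, a kinase of the pathway, -0.86 ± 0.23. Each lost its call without Lmo2 replicate 2 (adjusted p = 0.0636, 0.0564 and 0.132) and against wild-type replicates 1 to 3 alone (-1.17, -0.82 and -0.78), and Irak3 also without Lmo2 replicate 3 (-1.01). Irak2 lost it without wild-type replicate 1, 3, 4, 5 or 6 too (-0.85 to -0.82). Tlr4, the receptor that Cd14 serves, was detected on 1 array of each group (-0.02 ± 0.22), and Ly96, its partner MD-2, was detected on every array at 0.15 ± 0.21. On knockout arrays 5 of the 19 were higher than on Lmo2 arrays and 0 lower, with a median of 0.52. Il1b, the inflammatory cytokine, rose by 3.61 ± 0.66 (adjusted p = 0.00458), Irak3 by 1.71 ± 0.30, Tirap by 1.46 ± 0.25, Tlr2 by 1.38 ± 0.35 (0.0322) and Irak2 by 0.98 ± 0.26 (0.0422). Tlr2 lost its call without any 1 knockout array (1.34 to 1.44) and without Lmo2 replicate 2 (1.00) or 3 (1.28), and with either wild-type set left out of the fit (adjusted p = 0.0689 and 0.0585). Irak2 lost its call without knockout replicate 1 (0.90) or 2 (0.85), Lmo2 replicate 2 (0.72) or 3 (1.09), or wild-type replicate 1, 3, 4, 5 or 6, and without wild-type replicates 4 to 6 together (adjusted p = 0.101). Of all genes 4% were higher and 4.77% lower in that comparison. Of the neutrophil markers 15 of 16 were higher there too, and their part in these values was not tested.

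Around Mrc1, 16 of 23 scavenger and C-type lectin receptors were kept. Between Lmo2 and wild-type arrays 2 rose and 0 fell, with a median of -0.09 (all genes: 5.59% higher, 4.97% lower). They were the lectin receptors Clec4e (3.69 ± 0.45; adjusted p = 0.000241), also known as Mincle, and Clec4d (3.04 ± 0.38; 0.000289). Clec4e read 8.55, 8.82 and 10.04 on the Lmo2 arrays, against 4.49 to 6.41 on wild-type arrays, and was lower again on knockout arrays (-3.70 ± 0.52; 0.000841). Clec4d gave -1.46 ± 0.44 (0.0723) there. The scavenger receptors Msr1 and Cd36 were not detected on any array.

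Around Gpr34, 8 of 11 genes of lysophosphatidylserine receptors and enzymes were kept. Between Lmo2 and wild-type arrays 0 rose and 2 fell, with a median of -0.21 (all genes: 5.59% higher, 4.97% lower). Gpr174, another receptor for this lipid, fell by 1.38 ± 0.27 (adjusted p = 0.00700). Pld3, a lysosomal nuclease of the phospholipase D family, gave -1.53 ± 0.40 (0.0354) and read 6.89 on Lmo2 replicate 3 against 9.10 and 8.99 on the others. Its call ended without Lmo2 replicate 3 (-0.81; 0.0522), without knockout replicate 3 and without wild-type replicate 1, 4, 5 or 6 (-1.53 to -1.46), and against either wild-type set alone (-1.48 and -1.57). P2ry10, one more receptor of this group, gave 0.27 ± 0.88 (0.890). None of the 8 passed limma's test between knockout and Lmo2 arrays. Gpr34 and Gpr174 thus changed in opposite directions on the Lmo2 arrays. No gene of the lists around Csf1r, Cd14, Mrc1 or Gpr34 passed between knockout and wild-type arrays.

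The genes beside the members were read next. Gpr34 lies within the span of Cask on the X chromosome, a kinase-like scaffold protein of cell junctions. Cask read 5.53 to 6.32 on wild-type arrays, 7.36, 8.22 and 8.30 on Lmo2 arrays and 5.47 to 5.95 on knockout arrays. It rose by 1.94 ± 0.24 (adjusted p = 0.000272) between wild-type and Lmo2 arrays and fell by 2.30 ± 0.28 (0.000257) between Lmo2 and knockout arrays, on 1 of its 2 probes, while the other was detected on no array. Gpr82, the neighbouring receptor gene, was not detected on any array. Its values were 4.43 to 5.17.

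Beside Csf1r lies Pdgfrb, a receptor of the same kinase family that marks mesenchymal cells. It read 5.82 to 7.54 on wild-type arrays, 8.53, 7.48 and 10.13 on Lmo2 arrays and 5.93 to 6.54 on knockout arrays. Lmo2 minus wild-type gave 1.83 ± 0.53 (adjusted p = 0.0507), and it fell by 2.54 ± 0.61 (0.0242) between Lmo2 and knockout arrays, but leaving out Lmo2 replicate 3 ended that call (-1.83; 0.0682), as did leaving out any 1 knockout array (-2.72 to -2.41). Without Lmo2 replicate 2 the first difference was 2.45 (0.0133). Hmgxb3 on the other side gave 0.25 ± 0.15 (0.353). Beside the C1q genes, Zbtb40 gave 0.04 ± 0.23 (0.937), and Lactbl1 and Epha8 did not pass the detection filter.

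Genes with the most similar pattern were found by the root-mean-square difference over the 12 arrays after each gene was centred on its own mean. For the mean of C1qb and C1qc, whose own root-mean-square spread was 0.934, the 5 nearest were Fcna (0.330), Rtf1 (0.393), Ednrb (0.395), Lpl (0.425) and Grb7 (0.443). Each of them read highest on Lmo2 replicate 1 or 3 and lowest of the Lmo2 arrays on replicate 2. All nearest genes were picked by likeness over these same arrays, so a shared order comes with the choice and is no separate result. Ednrb, the endothelin B receptor, for example read 8.07, 5.71 and 6.61 on Lmo2 replicates 1 to 3 and 4.44 to 5.06 on wild-type arrays. For Gpr34, with a spread of 2.14, the nearest were Acox2 (0.416), agouti (symbol a; 0.439), Tenm4 (0.472), Olfm5 (0.516) and Ubqlnl (0.522). Tenm4, a teneurin, read 8.83, 7.33 and 10.33 on the Lmo2 arrays, in the same order as Gpr34, and 4.53 to 5.11 on the others. For Csf1r, with a spread of 0.521, the nearest were Epm2a (0.300), Sik1 (0.302), Treml4 (0.309), Vps37a (0.312) and Hyou1 (0.315), differences that are large beside that spread.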

How the data were processed

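RNA from sorted double-negative thymocytes was read on 12 arrays of Illumina MouseWG-6 v2.0 BeadChips, 1 sample per array in 1 colour, per the labels' protocols. The members, gene lists, tests and naming rule were chosen with earlier results of these data known.

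The authors' value table holds log2 values, used here as the measure. The deposited raw table holds, per the file headers, an intensity for every probe on every array next to its detection p-value. The submitters' processing notes list BeadStudio and limma with no version; the background step and genome build are not given in the sources used here. Each column of the value table matched 1 raw array (correlation of at least 0.9999 with neqc values computed here, with column medians of 4.88 to 4.89), which fixes its scale and direction and shows that its genes are not centred. Of 45281 probes 34885 carried 1 gene symbol, 18 several and 10378 none in the platform annotation, and 34807 of the first matched a RefSeq gene (GRCm38.p6).

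Kept probes (20651) were fitted with limma 3.58.1 under R 4.3.3 (lmFit, a mean per group over all arrays, eBayes, 9 residual degrees of freedom), a procedure tested on simulated data. Called means a Benjamini-Hochberg adjusted p under 0.05. Genes stand for their brightest kept probe. Where a group had no detected array, a bound is given, the brighter mean over a mean in which each dim array counts with its lowest detected value or the probe's own, whichever is higher. The number of arrays limits the precision.

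The naming rule took all members with every probe, Lyl1, up to 6 called genes per list and comparison with a few uncalled ones of defining role, marker sums, 2 neighbouring genes on each side, and the 5 genes nearest to 3 profiles. Alternatives were other normalizations, filters and fits, either wild-type set, a replicate block and each array left out.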

Additional observations from a re-analysis of the deposited data

How the results depend on the processing

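Each result was recomputed under 24 alternatives (23 where a stricter filter dropped the probe). Gpr34 kept both of its calls in all of them. Between Lmo2 and wild-type arrays the rises of Cd93, Slc40a1, Clec4e, Clec4d, Cask, Cd59a, Axl and Creg1 were also called in all. So were the falls of Fcer1g, Csf2ra, Irf8 and Gpr174. The number of the 5 tested genes called between Lmo2 and wild-type arrays was 3; it was 1 against wild-type replicates 1 to 3 alone and 1 with a replicate block, and ran from 1 (without Lmo2 replicate 1 or without Lmo2 replicate 3) to 4 when 1 array was left out. Between knockout and Lmo2 arrays it was 1, and 3 without Lmo2 replicate 2; between knockout and wild-type arrays it was 0, and 1 with array weights. Among all kept probes, 1825 were called between Lmo2 and wild-type arrays, 1050 with arrays scaled to a common median, 947 against wild-type replicates 1 to 3 alone, 3651 against replicates 4 to 6 alone, 789 with the replicate block and 1405 to 1858 when 1 array was left out, and 1201 when adjusted over 1 probe per gene, an alternative chosen after seeing the data that tests fewer probes. Between knockout and Lmo2 arrays 1452 were called, 949 scaled to a common median, 700 with only these groups in the fit, 949 with the block, and 962 and 958 without knockout replicates 2 and 3, with up to 1630 when another array was left out. Between knockout and wild-type arrays 146 were called, 4642 with array weights, 224 with only these groups in the fit, 75 and 1804 against the first and the second wild-type set, 31 with the block, and 44 and 49 without knockout replicates 2 and 3, with up to 183 when another array was left out. The difference of Csf1r between Lmo2 and wild-type arrays, not called in any alternative, turned positive with array weights (0.21), against replicates 4 to 6 alone (0.46), and without wild-type replicate 1 (0.20), 2 (0.02) or 3 (0.03) or Lmo2 replicate 2 (0.12), and leaving out 1 array gave -0.20 to 0.20. Lyl1 lost its call between knockout and wild-type arrays without background correction (-0.76), against replicates 1 to 3 alone and with the block. The causes were not tested. Deviations of same-numbered arrays of different groups from their group means had correlations of -0.510 to 0.315. Between Lmo2 and knockout arrays, with no wild-type mean involved, they were 0.154, 0.022 and -0.003 for replicates 1 to 3. In the other pairs the wild-type mean covered both wild-type sets, so those values cannot show whether the numbers pair the samples. Most values of these genes lay near the detection limit, and differences were smaller without background correction.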
